A study of Mus musculus with 9 samples.

Results

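Genes for the subunits of the mitochondrial oxidative phosphorylation system were read in mouse liver RNA. Members were chosen by name, as protein-coding genes whose symbols begin with Nduf, Uqcr, Cox4 to Cox8 or Atp5, or are Sdha, Sdhb, Sdhc or Sdhd. The rule found 88 of the 16755 genes in the authors' table, of which 13551 are protein-coding. The pattern takes in 77 subunits of the 5 complexes, 8 complex I assembly factors named Ndufaf and 3 related genes, Atp5s, Atp5sl and Cox7a2l. Levels are the authors' group means of upper-quartile-normalized read counts, and 85 members had a mean of at least 1 over the 3 groups. The remaining 3, Cox6a2, Cox7a1 and Cox8b, are isoforms of heart and skeletal muscle and are described apart from the counts below.

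The 9 male C57BL/6 mice fell into 3 groups of 3. The first were untreated Scd2f/f mice, whose tissue is called untreated liver. The second, treated Scd2f/f, were given diethyl nitrosamine (DEN), a hepatic carcinogen, at 10 mg/kg and 2 weeks of age, and from 6 weeks of age a liquid Western alcohol diet (WAD) that supplies lard, cholesterol and ethanol. The third, treated Scd2f/f;CC, went through the same regimen and also carried Col1a1-Cre, a recombinase whose promoter is active in hepatic stellate cells and portal fibroblasts, so that hepatocytes are not its target. All 9 mice carried the floxed Scd2 alleles, and no group carried Cre without the regimen. The labels give 4 months of WAD and call every tissue liver, while the study's own text gives another duration and calls the treated tissue tumor-adjacent in one place and non-tumorous in another. The age of the untreated mice is not given in the labels.

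Each value below is 1 mean per group, without the values of single mice, so no spread between mice could be computed and no test was run. Differences are therefore given as ratios of the authors' means, set beside the same ratios over the 11008 protein-coding genes averaging at least 1. Scd2, the floxed gene, had an authors' mean of 2.46 in untreated liver, 6.47 in treated Scd2f/f and 1.87 in treated Scd2f/f;CC. All 15 hepatocyte markers were present, led by Alb (albumin) at 21300, 20900 and 22700 in the same order. The summed means of the 15 hepatocyte markers were 54112, 55364 and 60548, those of 11 macrophage and monocyte markers 107, 420 and 340, and those of 14 stellate cell and fibroblast markers 236, 390 and 230. Those of 7 red cell markers were 321, 126 and 224, and those of 7 cholangiocyte markers 59.2, 54.4 and 19.4. Spp1 alone held 52.3, 45.1 and 14.8 of the cholangiocyte sums. The 7 cholangiocyte markers had a median log2 ratio of 0.01 in treated Scd2f/f over untreated liver. Of the 15 hepatocyte markers, 10 were lower and 5 higher in that comparison, with a median log2 ratio of -0.03. In whole tissue, fewer cells of a type and less RNA per cell cannot be told apart.

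Oxidative phosphorylation moves electrons from NADH through complex I, and from succinate through complex II, by way of ubiquinone to complex III, cytochrome c and complex IV, where oxygen is reduced. Complexes I, III and IV pump protons across the inner mitochondrial membrane, and ATP synthase uses the returning protons to make ATP. Most subunits are encoded in the nucleus and imported, and in all complexes but complex II they join a few core subunits encoded in mitochondrial DNA. The 13 mitochondrially encoded subunits were not analysed here. Hepatocytes are rich in mitochondria and depend on this system for gluconeogenesis, urea synthesis and fatty acid oxidation.

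Most members had lower means in treated Scd2f/f than in untreated liver. Of 85 members, 73 (85.9%) had a ratio under 1, against 45.8% of all protein-coding genes averaging at least 1, and 12 had a ratio over 1, against 53.6%. The median log2 ratio of the members was -0.29, a ratio of 0.820, with quartiles of -0.42 and -0.14, while the median over all genes was 0.04. A total of 14 members (16.5%) were at least 1.5-fold lower, against a background of 7.52%, and 0 were at least 1.5-fold higher, against 13.1%. At a limit of 20% lower, 35 members passed, against 18.3%. The members are short genes, with a median coding length of 438 bases against 1398 over all genes, and short genes outside the set were also lower, as given below. With the median of all other genes of similar coding length subtracted, the members' median log2 ratio was -0.13 and 6 were at least 1.5-fold lower, and with classes of transcript length these values were -0.070 and 7. The share of all genes at least 1.5-fold lower after these subtractions was not computed, so these counts stand without a background. Red cell markers were also lower in treated Scd2f/f, with a median log2 ratio of -1.33 over the 5 averaging at least 1, and macrophage markers higher, and the part of these cells in the members' ratios was not tested.

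**Figure D1:**
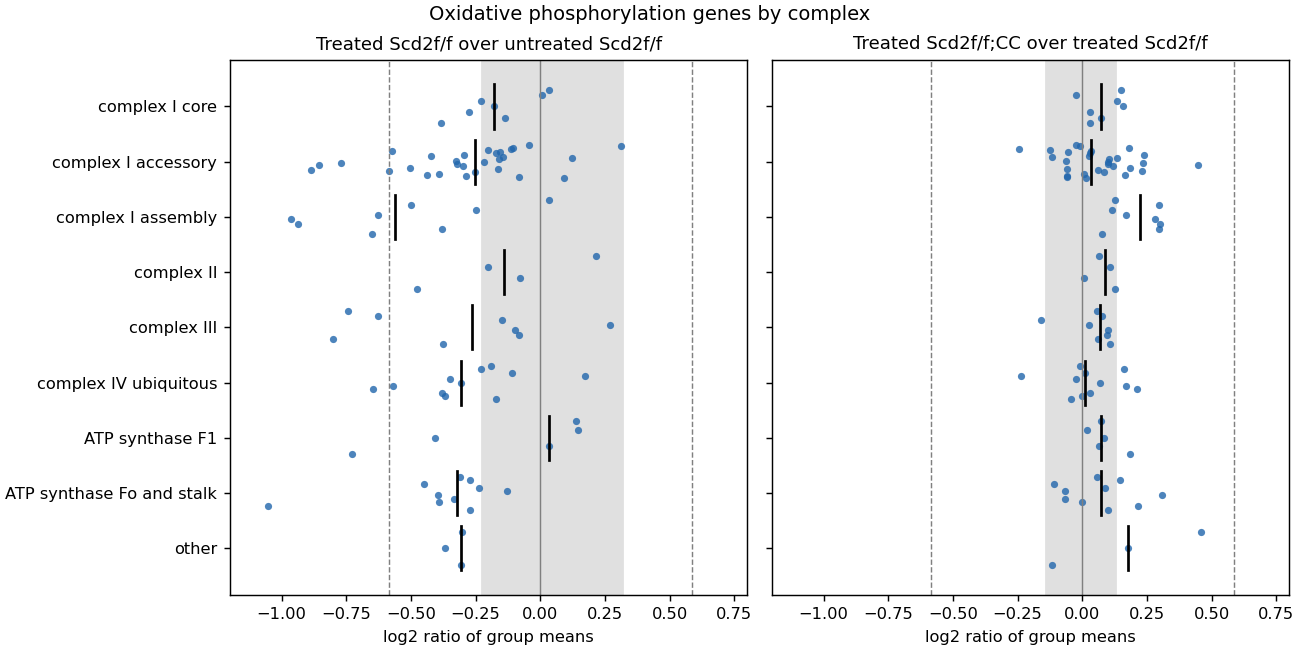
Log2 ratios of the authors' group means by class for members averaging at least 1 (points), with class medians (black bars), the quartile range of all protein-coding genes (grey band) and 1.5-fold limits (dashed lines), in treated over untreated Scd2f/f (left) and treated Scd2f/f;CC over treated Scd2f/f (right). Most points lie below 0 on the left (73 of 85) and above 0 on the right (63 of 85).

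Complex I, the NADH dehydrogenase, had 36 nuclear subunits among the members, 7 of its catalytic core and 29 accessory. The core subunits, which carry the flavin and the iron-sulfur clusters, had a median log2 ratio of -0.18 in treated Scd2f/f over untreated liver, and none was 1.5-fold lower. Ndufs1, the largest iron-sulfur subunit, had means of 65.8 in untreated liver, 67.3 in treated Scd2f/f and 74.6 in treated Scd2f/f;CC. Ndufv1, which binds NADH, had means of 57.6, 52.4 and 55.1. The levels of both genes were thus near one another across the groups, and the lowest ratio in the core was that of Ndufv2, an iron-sulfur subunit of the NADH module, with means of 62.6, 48 and 49 (log2 ratio -0.38). Ndufs3, Ndufs7 and Ndufs8, which link the NADH module to the membrane arm, had means of 36.6, 31.2 and 34.2, of 19.7, 17.4 and 19.4, and of 31.1, 25.7 and 26.2.

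The 29 accessory subunits of complex I had a median log2 ratio of -0.25, with 26 below 0 and 4 at least 1.5-fold lower. All 4 belong to the Ndufb series, subunits of the membrane arm that pumps protons. Ndufb8 (chr19:44548572-44555440, minus strand, here and below in mm10 coordinates) had means of 106 in untreated liver, 57.3 in treated Scd2f/f and 59.7 in treated Scd2f/f;CC, a log2 ratio of -0.89 in treated Scd2f/f over untreated liver. Ndufb4 had means of 21, 11.6 and 15.8, and its log2 ratio was -0.86. Ndufb2 had means of 30.9, 18.1 and 21.3, and Ndufb9 had means of 110, 73.3 and 86. In each of the 4, untreated liver had the highest mean and treated Scd2f/f the lowest. At the other end of the class stood Ndufa10, a peripheral subunit beside the proton channels, with means of 54.2, 67.3 and 66.9 and the highest log2 ratio of all members, 0.31.

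The assembly factors of the Ndufaf series build complex I and leave it when it is complete. They had the lowest median of any class, a log2 ratio of -0.56 over 8 genes. At least 1.5-fold lower in treated Scd2f/f were 4 of the 8 (50%, against 7.52% of all genes). Ndufaf5, which hydroxylates a residue of Ndufs7, had means of 3.55 in untreated liver, 1.82 in treated Scd2f/f and 2.21 in treated Scd2f/f;CC. Its partner Ndufaf8 had means of 4.61, 2.94 and 3.1. Ndufaf6, an early assembly factor, had means of 8.14, 4.25 and 5.23, and Ndufaf4 had means of 25, 16.2 and 18.2. All 4 were highest in untreated liver and lowest in treated Scd2f/f. Ndufaf1, which acts on the membrane arm, was the exception in the class, with means of 12.7, 13 and 14.2. Most of these genes are read at low levels, with 6 of the 8 under a mean of 10 in every group.

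Complex II, succinate dehydrogenase, is also an enzyme of the citrate cycle and has 4 subunits, all encoded in the nucleus. Sdha, the flavoprotein that oxidizes succinate, had means of 168 in untreated liver, 195 in treated Scd2f/f and 204 in treated Scd2f/f;CC. Sdhb, the iron-sulfur subunit, had means of 75.3, 65.5 and 70.6. The membrane anchors Sdhc and Sdhd had means of 48.5, 45.9 and 46.1 for Sdhc and of 94.9, 68.1 and 74.3 for Sdhd. Sdha was thus higher and Sdhd lower in treated Scd2f/f than in untreated liver, with log2 ratios of 0.22 and -0.48, and none of the 4 was past 1.5-fold.

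Complex III, the cytochrome bc1 complex, passes electrons from ubiquinol to cytochrome c, and its 8 members had a median log2 ratio of -0.26. The core protein Uqcrc1 had means of 81.5 in untreated liver, 98.3 in treated Scd2f/f and 100 in treated Scd2f/f;CC, and Uqcrc2 had means of 122, 114 and 122. Uqcrfs1, the Rieske iron-sulfur protein, had means of 71.5, 67.6 and 72.3. These 3 genes had log2 ratios from -0.10 to 0.27 in treated Scd2f/f over untreated liver, while 3 small subunits were at least 1.5-fold lower. Those 3 have up to 300 coding bases. They made up 37.5% of the class, against 7.52% of all genes and 24.0% of other genes as short. Uqcrh, the hinge protein beside cytochrome c1 (chr4:116066965-116075071, minus strand), had means of 111, 63.6 and 66.4, a log2 ratio of -0.80. Uqcr10 had means of 56.7, 33.9 and 35.3, and Uqcr11 had means of 83.3, 53.9 and 56.8. In Uqcrh, Uqcr10 and Uqcr11 both treated groups lay well below untreated liver and close to each other. Uqcrb, which helps hold the ubiquinone site, was lower again in treated Scd2f/f;CC, with means of 66.5, 60 and 53.7. Uqcrq, another small subunit, had means of 107, 82.4 and 88.7.

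Complex IV, cytochrome c oxidase, was represented by 11 ubiquitous nuclear subunits, which surround a core made in mitochondria. Their median log2 ratio in treated Scd2f/f over untreated liver was -0.31, with 10 of 11 below 0. Cox7b (chrX:106015700-106022450, plus strand), needed for assembly of the complex, was the only one at least 1.5-fold lower, with means of 108 in untreated liver, 68.9 in treated Scd2f/f and 79.7 in treated Scd2f/f;CC. Cox4i1, the largest nuclear subunit, had means of 162, 142 and 141. Cox6a1, the liver form of its subunit, went the other way, with means of 74.8, 84.3 and 71.5. It was the only one of the 11 with a higher mean in treated Scd2f/f than in untreated liver. Cox6b1, on the side of cytochrome c, had means of 83.6, 65.7 and 64.5, Cox7a2 had means of 49.6, 33.4 and 37.5, and Cox8a had means of 56.6, 43.8 and 43.7. Ndufa4, first assigned to complex I and now to complex IV, had means of 106, 94.2 and 91.3.

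ATP synthase has a catalytic sector, F1, and a membrane sector, Fo. The F1 sector holds the catalytic sites, which its alpha and beta subunits form. Atp5b (beta) had means of 393 in untreated liver, 435 in treated Scd2f/f and 440 in treated Scd2f/f;CC, and Atp5a1 (alpha) had means of 361, 397 and 417. Atp5e (epsilon), the smallest subunit of the central stalk, had means of 52.5, 31.7 and 36, and Atp5c1 (gamma), the rotor shaft, had means of 130, 98.1 and 104. Of the 5 F1 genes, 3 were above 0 and 2 below in treated Scd2f/f over untreated liver. In the membrane sector Fo and the peripheral stalk, 10 of 10 genes had lower means in treated Scd2f/f, with a median log2 ratio of -0.32.

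Atp5l, subunit g at the base of the ATP synthase dimer (chr9:44912557-44920742, minus strand), was the lowest member of all with a mean of at least 1. Its means were 105 in untreated liver, 50.6 in treated Scd2f/f and 58.8 in treated Scd2f/f;CC, a ratio of 0.482 and a log2 ratio of -1.05. It was the only member at least 2-fold lower, which 2.27% of all genes were. Atp5h, of the peripheral stalk, had the highest ratio of the sector, with means of 96.1, 87.9 and 83.8. The 3 related genes also had lower means in treated Scd2f/f. Atp5s had means of 2.6, 2.11 and 2.9, Atp5sl of 9.63, 7.46 and 8.43, and Cox7a2l of 41.2, 33.3 and 30.7.

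The c-ring that turns in Fo is built from 1 protein encoded by 3 genes, Atp5g1, Atp5g2 and Atp5g3, which differ in their import sequence. Atp5g3 had means of 100, 84.9 and 90.2, Atp5g1 of 39.8, 33 and 36.5, and Atp5g2 of 22.1, 16.2 and 15. Per coding length, Atp5g3 made up 61.5%, 63.0% and 63.3% of the summed level of the 3 genes and Atp5g2 13.1%, 11.6% and 10.2%. Atp5g2 had the lowest ratio of the 3 genes in both comparisons with treated Scd2f/f. A pseudogene of the table, Gm10175, is identical to Atp5g2 over 441 bases, and its means of 3.64, 4.24 and 4.59 may share reads with it.

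**Figure D2:**
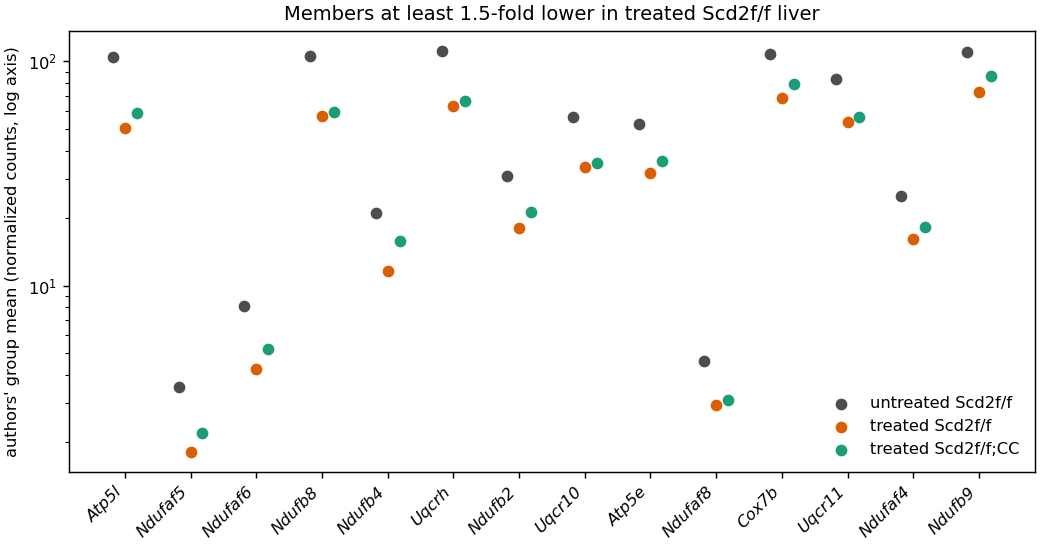
The authors' group means of the 14 members at least 1.5-fold lower in treated Scd2f/f than in untreated liver, on a log axis, with 1 point per group. In all 14 the untreated liver point is the highest and the treated Scd2f/f point the lowest, from 105 against 50.6 in Atp5l to 110 against 73.3 in Ndufb9.

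The promoters of respiratory genes are known for sites of nuclear respiratory factor 1 (NRF1), whose core was searched as CGCANGCGC on both strands in the 300 bases from 250 before to 50 after each RefSeq start. Of 88 members, 75 were matched to a RefSeq promoter (GRCm38.p6), and 26 of them (34.7%) held the NRF1 letters, against 7.12% of 27025 genes and 15.9% of the 8833 protein-coding genes that averaged at least 1 and had a promoter. The stretches below show how these letters sit in members at both ends of the range, the 3 lowest and the 2 highest log2 ratios in treated Scd2f/f over untreated liver among members that hold a match. Capitals mark the NRF1 letters, and every stretch is written in the direction of transcription.
Atp5l, chr9:44920693-44920992, minus strand: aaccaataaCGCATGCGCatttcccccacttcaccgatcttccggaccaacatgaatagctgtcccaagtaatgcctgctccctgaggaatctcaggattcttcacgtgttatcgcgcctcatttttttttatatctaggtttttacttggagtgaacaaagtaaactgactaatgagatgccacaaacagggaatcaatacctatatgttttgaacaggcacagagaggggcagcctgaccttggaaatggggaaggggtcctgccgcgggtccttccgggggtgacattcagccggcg
Ndufaf5, chr2:140170396-140170695, plus strand: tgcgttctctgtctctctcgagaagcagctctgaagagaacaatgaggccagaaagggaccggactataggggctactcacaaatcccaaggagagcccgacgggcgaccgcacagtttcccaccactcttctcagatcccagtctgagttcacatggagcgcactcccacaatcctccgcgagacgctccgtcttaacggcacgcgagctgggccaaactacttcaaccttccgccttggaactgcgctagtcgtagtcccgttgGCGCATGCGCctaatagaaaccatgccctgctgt
Ndufb4, chr16:37654319-37654618, minus strand: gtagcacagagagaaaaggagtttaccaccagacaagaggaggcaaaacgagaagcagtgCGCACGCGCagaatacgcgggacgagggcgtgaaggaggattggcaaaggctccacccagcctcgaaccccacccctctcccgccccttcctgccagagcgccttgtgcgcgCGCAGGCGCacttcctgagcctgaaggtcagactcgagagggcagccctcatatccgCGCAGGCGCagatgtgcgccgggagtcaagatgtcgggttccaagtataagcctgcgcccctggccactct
Uqcrc1, chr9:108936398-108936697, plus strand: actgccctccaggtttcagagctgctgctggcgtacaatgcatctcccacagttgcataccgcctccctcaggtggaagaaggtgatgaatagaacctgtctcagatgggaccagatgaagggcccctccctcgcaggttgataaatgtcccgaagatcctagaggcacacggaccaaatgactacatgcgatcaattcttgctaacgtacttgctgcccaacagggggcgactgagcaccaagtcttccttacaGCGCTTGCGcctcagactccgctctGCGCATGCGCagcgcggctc
Sdha, chr13:74350191-74350490, minus strand: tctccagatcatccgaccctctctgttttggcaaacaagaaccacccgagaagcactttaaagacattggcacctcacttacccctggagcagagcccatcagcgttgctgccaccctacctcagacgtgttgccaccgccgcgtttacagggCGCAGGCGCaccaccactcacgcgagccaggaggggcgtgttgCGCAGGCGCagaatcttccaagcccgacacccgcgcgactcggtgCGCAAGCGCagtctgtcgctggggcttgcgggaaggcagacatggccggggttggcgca

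In Ndufb4 and Sdha, the letters occur at 3 places each, and in both genes all 3 lie before the start. The ratios of members with and without the NRF1 letters had close medians. The median log2 ratio in treated Scd2f/f over untreated liver was -0.29 for the 26 members with them and -0.30 for the 47 without them that had a mean of at least 1. In treated Scd2f/f;CC over treated Scd2f/f these medians were 0.07 and 0.08. The letters AAGATGGCG of YY1 were found in 9 members (12%), in 1.64% of all promoters and in 3.87% of those of expressed genes. Those of GABPA, CCGGAAGT, were found in 5 members (6.67%), in 4.31% of all promoters and in 9.57% of those of expressed genes, and those of the estrogen-related receptors, TCAAGGTCA, in 2 members (2.67%), 0.466% and 0.306%. A match of letters is a description of the sequence and was not tested as a binding site.

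Within the members, short genes had lower ratios than long ones, and the same held over all genes. Among members, Spearman's rho between coding length and the log2 ratio in treated Scd2f/f over untreated liver was 0.43 over 85 genes, and among 10726 other genes it was 0.21. These are descriptions across genes, which share their libraries and are not independent. The 10 members of over 1200 and up to 2400 coding bases, among them Sdha, Atp5a1, Atp5b, Uqcrc1 and Ndufs1, had a median log2 ratio of 0.06, and so did 4025 other genes of that length. The 19 members of up to 300 coding bases had a median of -0.38, against -0.29 for 208 other genes as short, of which 24.0% were at least 1.5-fold lower. The 41 members of over 300 and up to 600 bases had a median of -0.29 against -0.15, and the 15 of over 600 and up to 1200 bases -0.27 against -0.02. Of the 85 members, 63 lay below the median of their length class. Grouped by transcript length instead, the distances to other genes were smaller for short transcripts, with medians of -0.38 against -0.35 up to 600 bases and -0.30 against -0.28 over 600 and up to 800 bases. In longer transcripts they were larger, with -0.25 against -0.03 over 1200 and up to 2000 bases. The part of gene length in the members' ratios was not tested beyond these values.

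**Figure D3:**
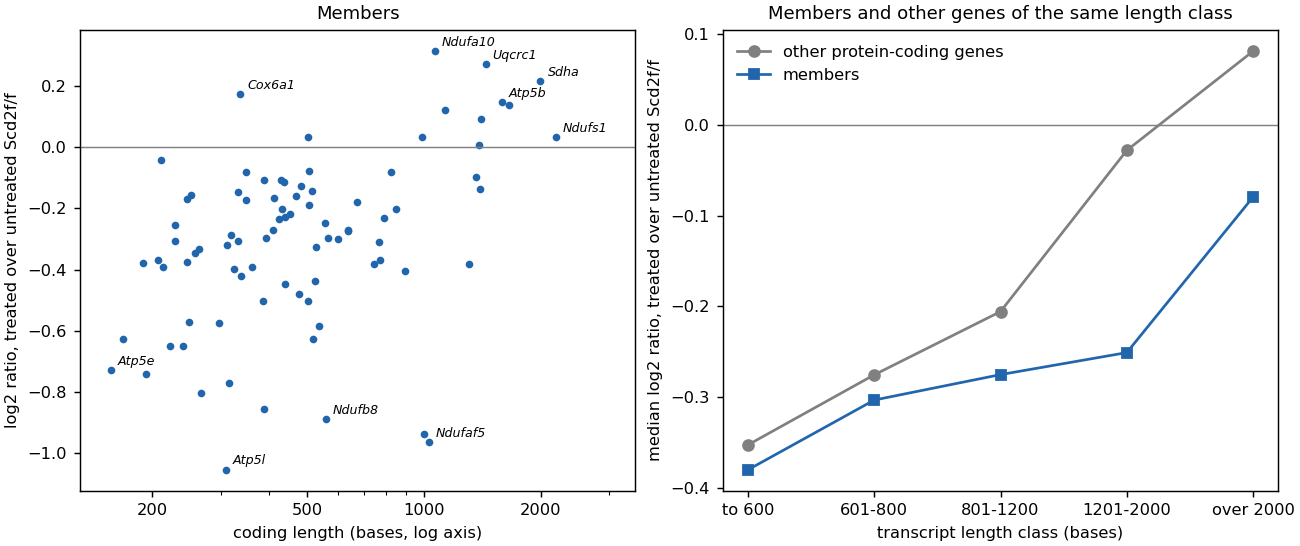
Left, coding length in bases on a log axis against the log2 ratio of the authors' means in treated over untreated Scd2f/f, with 1 point per member. Right, median log2 ratios of members (squares) and other protein-coding genes (circles) by transcript-length class, which run from -0.38 and -0.35 in the shortest class to -0.08 and 0.08 in the longest.

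Between treated Scd2f/f;CC and treated Scd2f/f the members differed little. None of the 85 was past 1.5-fold in either direction, where 1.73% of all genes were higher and 4.81% lower. Small differences leaned upward, with 63 of 85 members (74.1%) above 1, against 49.4% of all genes, 21 below and Atp5k equal at 21.2 in both groups. The median log2 ratio was 0.07, with quartiles of 0.00 and 0.15, against 0.00 over all genes. Since treated Scd2f/f enters this ratio as the divisor and the previous one as the dividend, both sets of values share it and are not independent, and a low mean in that group alone would move both.

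The highest ratios in this comparison were those of Atp5s, a factor related to the coupling of ATP synthase, with means of 2.11 in treated Scd2f/f and 2.9 in treated Scd2f/f;CC, and of Ndufb4, with 11.6 and 15.8. These 2 members were at least 25% higher, as were 6.72% of all genes. Atp5j, coupling factor 6 of the peripheral stalk, followed with means of 63.4 and 78.5 (log2 ratio 0.31). The lowest were Ndufa12, an accessory subunit of complex I, with 18 and 15.2, and Cox6a1, with 84.3 and 71.5, both at a log2 ratio of -0.24. The pseudogene Gm15920, 99.5% identical to Ndufa12 over 402 bases, had 5.9 and 3.75 and may share reads with it. Among classes, the Ndufaf assembly factors had the highest median, 0.22, with 8 of 8 higher in treated Scd2f/f;CC, from Ndufaf8 at 0.08 to Ndufaf6 at 0.30. All 4 Sdh genes and all 5 F1 genes also had higher means in treated Scd2f/f;CC, with medians of 0.09 and 0.07. Complex IV had a median of 0.01, with 6 of 11 higher, from Cox6a1 to Cox7b at 0.21.

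Lengths ordered this second comparison less than the first, with Spearman's rho of 0.17 among members and 0.06 among other genes. In the 4 coding-length classes that hold members, their medians were 0.06, 0.09, 0.11 and 0.07 from short to long, against -0.05, -0.03, -0.01 and 0.01 in other genes, and 69 of 85 members lay above the median of their class. By level, the 8 members with a mean of 1 to 10, of which 6 are Ndufaf factors and the others Atp5s and Atp5sl, had a median of 0.29 against -0.03 in other genes of that level. The 42 with a mean of 10 to 50 had 0.05 against 0.01, and the 35 with a mean over 50 had 0.07 against 0.05. The summed hepatocyte markers were also higher in treated Scd2f/f;CC than in treated Scd2f/f (60548 against 55364), with a median log2 ratio of 0.14 over the 15 markers, and the summed stellate cell and fibroblast markers lower (230 against 390). Red cell markers were higher, with a median of 0.86 over 5, and cholangiocyte markers lower, with a median of -1.61 over 3. The part of these cell markers in the members' ratios was not tested.

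Against untreated liver, treated Scd2f/f;CC still had lower means for most members. A total of 71 of 85 had a ratio under 1, against 44.7% of all genes, and 13 had a ratio over 1, against 54.7%, with a median log2 ratio of -0.22 against 0.05. At least 1.5-fold lower were 6 members (7.06%), near the background of 6.89%, and none was 1.5-fold higher, against 10.7%. At a limit of 20% lower 31 members passed, against 17.1%, and 0 were 2-fold lower, against 2.19%. With the median of genes of similar coding or transcript length subtracted, the members' median was -0.080 or -0.042 and 4 or 2 members were at least 1.5-fold lower, and with ratios centred on all genes 11 were. The shares of all genes under these adjustments were not computed. Before these adjustments the 6 were Atp5l, Ndufb8, Uqcrh, Ndufaf5, Uqcr10 and Ndufaf6, with log2 ratios from -0.84 to -0.64. As a whole, the summed means of all 88 members were 5312 in untreated liver, 4610 in treated Scd2f/f and 4789 in treated Scd2f/f;CC. Those sums were 0.647%, 0.700% and 0.647% of the summed means of all genes in the table, which were 820581, 658322 and 739723. The share was thus highest where the summed means of all genes were lowest, and the members' own sum was also lowest there. Over protein-coding genes averaging at least 1, the summed means were 490092, 477914 and 516573, against 5310, 4609 and 4789 for the 85 members.

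The muscle isoforms of cytochrome c oxidase were under 1 in both treated groups. Cox6a2, the heart and muscle form of subunit VIa, had means of 0.488 in untreated liver, 0.0445 in treated Scd2f/f and 0.0458 in treated Scd2f/f;CC. Cox7a1 had means of 1.14, 0.403 and 0.486, and Cox8b had means of 0.387, 0.19 and 0.18. All 3 were thus highest in untreated liver, while the smallest means the table holds are 0.04, 0.0348 and 0.0349 in the 3 groups. Per coding length, Cox6a2 made up 0.748% of the summed Cox6a level in untreated liver and 0.0609% in treated Scd2f/f, and Cox7a1 2.33% and 1.24% of Cox7a1 and Cox7a2 together. Cox4i2, Cox6b2, Cox7b2, Cox8c and Ndufa4l2, further isoforms for special tissues or conditions, were not analysed here.

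Markers of striated muscle moved with these 3 isoforms. All 13 markers listed were found, and their summed means were 63.9 in untreated liver, 0.894 in treated Scd2f/f and 0.664 in treated Scd2f/f;CC. Myh4, a myosin of fast muscle, had means of 11.5, 0.0348 and 0.0349, and Ckm, muscle creatine kinase, had means of 5.33, 0.0465 and 0.0349. In treated Scd2f/f 7 of the 13 were at the lowest mean of the table, and in treated Scd2f/f;CC 11 were. Which of the 3 untreated livers held these transcripts cannot be read from a group mean, and their part in the means of the other members in untreated liver was not tested.

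**Figure D4:**
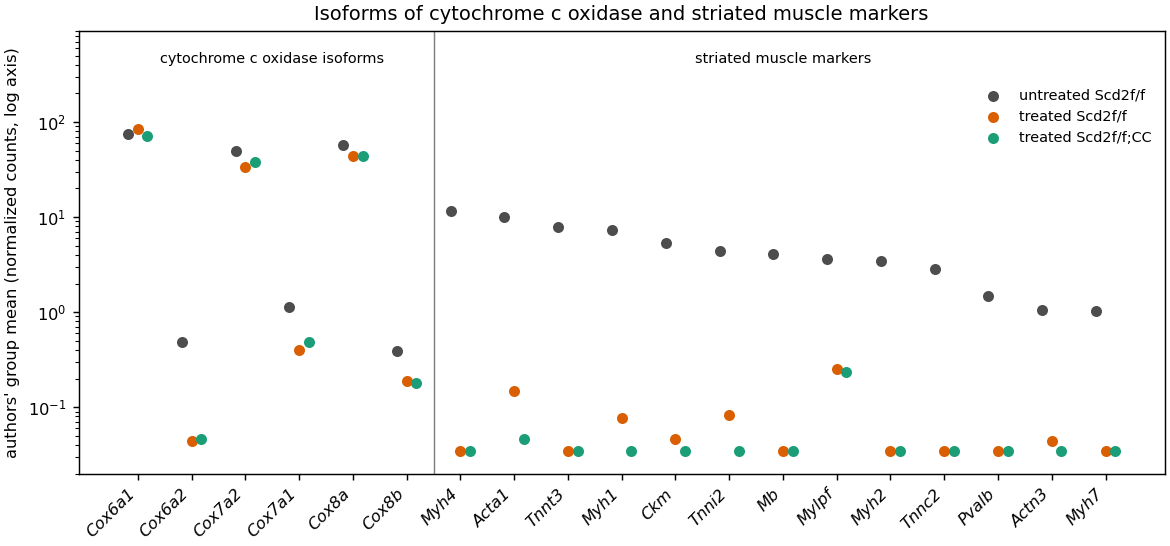
The authors' group means, on a log axis, of the ubiquitous and muscle isoforms of 3 cytochrome c oxidase subunits (left) and of 13 striated muscle markers (right), with 1 point per group. The muscle isoforms and markers are highest in untreated liver, as in Myh4 at 11.5 against 0.0348 and 0.0349, while Cox6a1, Cox7a2 and Cox8a lie between 33.4 and 84.3 in every group.

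Other genes of the respiratory system were read from lists beside the members. Subunits and carriers whose names the pattern misses were looked for by symbol and alias, and 5 genes were found. Usmg5, a small subunit of the ATP synthase dimer that sits beside Atp5l, had means of 92.4 in untreated liver, 45.1 in treated Scd2f/f and 48 in treated Scd2f/f;CC, a log2 ratio of -1.03 that is close to that of Atp5l. Cyc1, cytochrome c1 of complex III, had means of 58, 49.4 and 54.8, and its electron acceptor Cycs had means of 56, 48.8 and 44.6. Atpif1, the inhibitor of ATP synthase, had means of 7.45, 8.29 and 5.79.

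Assembly factors of all 5 complexes outside the members numbered 44 with a mean of at least 1. Their median log2 ratio in treated Scd2f/f over untreated liver was -0.21, with 7 at least 1.5-fold lower (15.9%, against 7.52% of all genes) and 1 higher, and 0.05 in treated Scd2f/f;CC over treated Scd2f/f. The lowest in the first comparison were Coa6, which delivers copper to complex IV, with means of 15.2, 8.07 and 8.95, and Tmem126a, of complex I assembly, with 21.8, 12 and 12.6. The 1 that was higher was Sco2, another copper chaperone, with means of 5.36, 8.27 and 9.18. The lists thus held single genes at both ends. For the other complexes, the lowest were Sdhaf4 (complex II, 4.96, 2.94 and 3.76), Uqcc2 (complex III, 9.59, 7.18 and 8.55) and Atpaf1 (ATP synthase, 10.3, 6.77 and 8.03), and the highest were Acad9 (complex I, 14.1, 17.5 and 19), Sdhaf3 (4.34, 3.67 and 4.24), Bcs1l (3.93, 4.38 and 4.72) and Atpaf2 (5.82, 5.99 and 6.34). In treated Scd2f/f;CC over treated Scd2f/f, the ratios of these factors ran from a log2 value of -0.48 in Cox20, of complex IV assembly (6.87 and 4.93), to 0.35 in Sdhaf4. Cox11 was the highest of complex IV (5.21, 3.27 and 3.91), and the lowest of the other lists were Tmem186 (5.16, 4.69 and 4.46), Sdhaf1 (5.4, 4.53 and 3.62) and Uqcc3 (6.77, 6.71 and 6.04).

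The regulators of respiratory genes gave no ratio past 1.5-fold in treated Scd2f/f over untreated liver among 19 genes, and their median log2 ratio was -0.09. Of all genes, 13.1% were higher and 7.52% lower at this limit. Ppargc1a, a coactivator that raises mitochondrial gene expression, had means of 4.91 in untreated liver, 6.17 in treated Scd2f/f and 6.55 in treated Scd2f/f;CC, and its relative Ppargc1b had means of 4.18, 2.82 and 3.7. These coactivators thus had the highest and the lowest ratio of the list. In treated Scd2f/f;CC over treated Scd2f/f the median was 0.11, and Esrrg, an orphan nuclear receptor, was the only one past 1.5-fold, with means of 1.49 and 2.27. Pprc1, another coactivator of the family, was the lowest there, with 7.06 and 6.39.

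Citrate cycle enzymes, which feed electrons to complexes I and II, did not share the direction of the members as a whole. Of 14 genes, 10 were higher and 4 lower in treated Scd2f/f than in untreated liver, with a median log2 ratio of 0.13 and a median coding length of 1359 bases. Idh2, the NADP-linked isocitrate dehydrogenase of mitochondria, was at least 1.5-fold higher, with means of 40.3, 70.7 and 53.5. Fh1, fumarase, was the lowest, with means of 83.5, 66.2 and 78.2. In treated Scd2f/f;CC over treated Scd2f/f, the list had a median of 0.01, with Idh2 lowest at -0.40 and Idh3a, of the NAD-linked isocitrate dehydrogenase, highest with means of 24.5, 19.9 and 23.9.

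Lists of other large complexes were added after these values had been seen. The 76 cytosolic ribosomal proteins had a median coding length of 453 bases, close to that of the members. Their median log2 ratio in treated Scd2f/f over untreated liver was -0.59. Of the 76, 38 (50%) were at least 1.5-fold lower, against 7.52% of all genes. The 78 mitochondrial ribosomal proteins, of 582 bases, had a median of -0.30, and 37 proteasome subunits, of 831 bases, had a median of -0.02. In treated Scd2f/f;CC over treated Scd2f/f the medians of these lists were -0.04, 0.03 and -0.02. The members' ratio in the first comparison was thus near that of mitochondrial ribosomal proteins and less far below 0 than that of cytosolic ones.

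**Figure D5:**
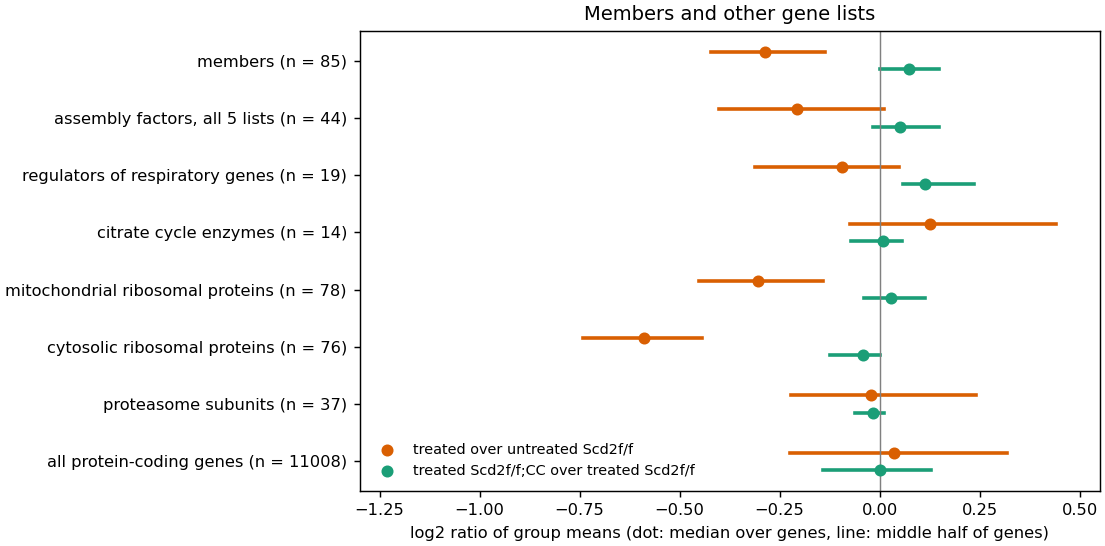
Median log2 ratios of the authors' means (dots) with their quartiles (line ends) for the members, related gene lists and all protein-coding genes, in treated Scd2f/f over untreated liver and in treated Scd2f/f;CC over treated Scd2f/f. In the first comparison the medians run from -0.59 in cytosolic ribosomal proteins, through -0.29 in the members, to 0.13 in citrate cycle enzymes.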

How the data were processed

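Polyadenylated RNA was prepared with a TruSeq v2 kit and sequenced by the authors from liver of 9 mice in 3 groups of 3. Per the labels, reads were processed with STAR 2.6.1 and Partek 6 on mm10, and the study's methods name Gencode M3, Partek E/M quantification and upper-quartile normalization. The deposited table of 18 columns gives, for each group, the authors' least-squares mean of normalized counts per gene, a signal with 3 significant digits. Its other columns hold the authors' p-values, false discovery rates, ratios and fold changes of 2 comparisons and were not used. Depth is unknown.

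Ratios of the means were computed for 3 comparisons and called at 1.5-fold among protein-coding genes averaging at least 1. Named are members past 1.5-fold, the highest and lowest of each class and of each list, tissue isoforms and their partners, Sdh genes, catalytic subunits and Scd2. An item of this rule is not reported here. The members and lists were chosen with earlier results of these data known. Genes named beyond this rule were chosen after their values were seen. Of 88 members, 87 were found by symbol in GENCODE M21 (GRCm38) and overlapped that gene, which also gave coding lengths. Pseudogenes were compared with members by BLAST 2.17.0. The ratios, the 1.5-fold calls and a median were checked on simulated group means with known fold changes, and the other steps were not. Software was Python 3.11.15, NumPy 2.4.6, pandas 2.3.3, SciPy 1.17.1 and Matplotlib 3.10.9.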

Additional observations from a re-analysis of the deposited data

How the results depend on the processing

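With single group means, no replicate could be left out, and no spread between mice was available to the ratios given here. No paired analysis was possible because the table holds group means only. At limits of 20% lower and 25% higher, 35 members were lower in treated Scd2f/f than in untreated liver, 31 were lower in treated Scd2f/f;CC than in untreated liver, and 2 were higher in treated Scd2f/f;CC than in treated Scd2f/f. Under a limit of 2-fold, the first 2 counts were 1 and 0. With ratios centred on the median of all genes, 11 members were lower in treated Scd2f/f;CC than in untreated liver. With the median of the coding-length class subtracted, 6 were lower in treated Scd2f/f than in untreated liver, with a median log2 ratio of -0.13, and the median in treated Scd2f/f;CC over untreated liver was -0.080. With transcript-length classes these values were 7, -0.070 and -0.042, and 2 were lower in treated Scd2f/f;CC than in untreated liver. Both length corrections were chosen after seeing the data. For the centred and the length-corrected counts no share of all genes was computed. The members' 3 medians kept their sign under every setting listed here. The other settings were no filter, a mean of at least 10, pseudocounts of 0.1 and 1, subunits only and summed means. Over all settings, 74 of 87 summary values moved by at most 1.5 times in a count or by less than 0.1 in a median. Many of these 74 are counts that were 0 in the main setting and stayed at 0, so the number says little about the counts above 0.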

Other observations

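Reads of some members may be shared with other genes. Of 870 pseudogenes in the table, 15 were at least 85% identical to a member over at least 200 bases, and they were alike to 11 members. The pseudogene Gm4459 stood at 27.0% of the mean of Ndufab1 in untreated liver, Gm15920 at 24.2% of Ndufa12 and BC002163 at 13.6% of Ndufs5. Gm10221 is identical to Atp5l over 309 bases, and its means were 8.27 in untreated liver, 8.37 in treated Scd2f/f and 10.3 in treated Scd2f/f;CC, where Atp5l had 105, 50.6 and 58.8. Among members lower in treated Scd2f/f, Ndufb2 overlaps Braf on the other strand and Uqcrh overlaps the pseudogene Gm12854, and the kit used does not mark strand.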
